A study of Rattus norvegicus with 3 samples.

Results

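Tubulin isotypes are the alternative alpha and beta chains from which microtubules are built, and 10 of their genes were followed in the RNA of rat blood platelets. The genes were taken by symbol from the annotation of the array: Tuba1a, Tuba1b, Tuba1c, Tuba4a and Tuba8 encode alpha chains, and Tubb2a, Tubb2b, Tubb4b, Tubb5 and Tubb6 encode beta chains. All 10 were found, with 1 array feature each, among 15037 genes with a symbol. RNA was measured on 3 arrays, 1 for each group of platelets from F344 rats, an inbred strain. SOR-PLT were platelets loaded outside the body with sorafenib, and LEN-PLT were platelets loaded with lenvatinib, in each case 10 µg of drug for 30 minutes at 37 °C, followed by a wash. Sorafenib and lenvatinib are kinase inhibitors that act on receptors of vascular growth factors, among others. PLT were control platelets without drug. The sources used here do not give whether PLT went through the same warm incubation and wash, so drug and handling cannot be told apart in a difference from PLT. Every array held RNA pooled from 5 rats, so no group has a replicate, and each difference below lies between single arrays, without a p-value or an error. Precision is limited by the number of arrays.

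An alpha and a beta chain form the dimer that polymerises into a microtubule. In a resting platelet, microtubules lie in a coil under the membrane, the marginal band, which keeps the cell flat and disc-shaped, and the parent megakaryocyte needs microtubules to extend the processes from which platelets are shed. Platelets have no nucleus and their messenger RNA comes from the megakaryocyte. Tubb1, the beta chain best known from the marginal band, was not analysed here.

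Values are log2 signals as deposited, and differences are taken as the array named first minus the other, so that a difference of 1 is 2-fold and one of 0.585 is 1.5-fold. Signals of different genes were not set against each other, since features differ in how well they capture their target. Summed signals of marker genes, given further below, are set by the features that read highest and were compared only between arrays. A feature was read as above background when its mean over the 3 arrays reached 7.69, the 95th percentile of 1153 negative control features. Of the 10 tubulin genes, 8 did so, and Tuba8 and Tubb6 did not. Of 9 measured platelet markers, 8 were above background, among them Pf4 and Clec1b, which were at the top of the scale, 19.93, on all 3 arrays. Selp was the marker below background. The median over all features was 4.22 in SOR-PLT, 4.22 in LEN-PLT and 4.21 in PLT. In many genes arrays had exactly equal values: 28.1% of 7519 genes at or above a low-signal filter of 4.25 were tied between SOR-PLT and PLT. Equal values thus carry no statement about a transcript. In bulk RNA, fewer cells of a type and less RNA per cell cannot be told apart.

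The sequences just before the transcription start of 4 alpha-tubulin genes, which read higher in both drug arrays, are printed first. Those of a pair of beta-tubulin genes follow: Tubb2a, higher with sorafenib and lower with lenvatinib, and Tubb4b, lower with both. The genes were chosen after the values were seen, and whether their sequences bear on the differences was not tested. Each run covers the 150 bases before the annotated start, 5′ to 3′ on the gene's strand, from RefSeq (GRCr8). Capitals mark matches on either strand to CCAAT (the CCAAT box), TATAA (the core of a TATA box) or GGGCGG (a GC box).
Tuba1a (GRCr8 chr7:131995820-131995969, strand -): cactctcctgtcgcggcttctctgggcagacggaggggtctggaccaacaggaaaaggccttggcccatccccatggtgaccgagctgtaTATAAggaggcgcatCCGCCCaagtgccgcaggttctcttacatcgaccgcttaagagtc
Tuba1b (GRCr8 chr7:131972588-131972737, strand -): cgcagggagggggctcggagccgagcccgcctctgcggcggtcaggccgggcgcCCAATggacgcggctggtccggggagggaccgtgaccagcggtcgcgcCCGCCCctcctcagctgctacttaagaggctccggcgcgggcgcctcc
Tuba1c (GRCr8 chr7:132070834-132070983, strand +): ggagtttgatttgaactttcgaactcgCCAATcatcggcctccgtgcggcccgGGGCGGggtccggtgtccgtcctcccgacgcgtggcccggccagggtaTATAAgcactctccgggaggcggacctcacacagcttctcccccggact
Tuba4a (GRCr8 chr9:84162585-84162734, strand -): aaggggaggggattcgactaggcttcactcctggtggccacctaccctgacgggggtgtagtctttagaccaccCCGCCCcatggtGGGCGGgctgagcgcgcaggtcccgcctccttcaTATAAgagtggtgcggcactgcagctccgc
Tubb2a (GRCr8 chr17:31002036-31002185, strand +): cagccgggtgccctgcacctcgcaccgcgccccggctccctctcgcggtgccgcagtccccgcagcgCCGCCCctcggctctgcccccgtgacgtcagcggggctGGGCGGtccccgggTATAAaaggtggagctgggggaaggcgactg
Tubb4b (GRCr8 chr3:28438456-28438605, strand -): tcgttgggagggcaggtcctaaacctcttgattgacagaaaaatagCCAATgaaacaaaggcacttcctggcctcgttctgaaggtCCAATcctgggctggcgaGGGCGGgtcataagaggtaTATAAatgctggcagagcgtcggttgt
Promoters were found for all 10 tubulin genes. The annotated span of Tuba1a, Tuba1c, Tuba4a and Tuba8 reaches into this window, since the annotation extends these genes further upstream. GGGCGG was found in 8 of the 10 windows, 4 alpha and 4 beta, against 27.8% of 27455 promoters. TATAA was found in 5, namely Tuba1a, Tuba1c, Tuba4a, Tubb2a and Tubb4b, against 15.5% of all promoters. CCAAT was found in 5, namely Tuba1b, Tuba1c, Tubb4b, Tubb5 and Tubb6, against 23.7%. The 27455 promoters were not matched to the tubulin genes for kind of gene or for the share of G and C. That share ran from 51.3% in Tubb4b to 77.3% in Tuba1b over the 10 windows. In Tuba4a the TATAA match began at position -30, counted back from -1 at the last base before the start, in Tubb2a at -31, in Tubb4b at -27, in Tuba1c at -49 and in Tuba1a at -60. Searched as well were AGATAA, a motif of GATA factors, CCGGAA, a motif of ETS factors, and TGAGTCA, a motif of NF-E2 and AP-1, which are present in 5.82%, 10.4% and 2.29% of all promoters. These letters were in 0 of the 10 windows. No match of one motif overlapped a match of another, and a match is a description of letters and not of a bound site.

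Alpha-tubulin genes read higher in the sorafenib array than in the control array. All 4 above background, Tuba1a, Tuba1b, Tuba1c and Tuba4a, were higher with sorafenib, with a median difference of 0.51. Tuba8, below background, was tied, and over all 5 alpha genes the median was 0.49. Of the 4 beta-tubulin genes above background 2 were higher and 2 lower. Over all 1961 genes above background, 780 were higher, 763 lower and 418 tied. Tubb6, below background, differed by 0.0028, which turned to -0.0018 under median centring, and it set the beta median of 0.0028. The median of all 10 genes was 0.15, and 0.27 over the 8 above background, against 0 over the 7519 genes at or above the low-signal filter. No tubulin gene was 2-fold apart, as were 0.585% of the genes at or above the filter. At least 1.5-fold higher was 1 of the 10, Tuba1b, against 2.71% of the genes at or above the filter.

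Lenvatinib was set against the same control array, so that its differences share the control values with those of sorafenib. With lenvatinib the 4 alpha-tubulin genes above background were all higher, with a median difference of 0.67. Tuba8 differed by 0.14 below background, and with it the alpha median was 0.54. Of the 4 beta-tubulin genes above background 1 was higher and 3 were lower, with a median of -0.06. Over all 1961 genes above background, 808 were higher, 768 lower and 385 tied. Tubb6 differed by 0.0028, and by -0.0035 under median centring and -0.0064 under cyclic loess. The median of the 10 genes was 0.11 and their mean 0.25, and the median over the 8 above background was 0.26, against a median of 0 over the genes at or above the filter. Again 0 tubulin genes were 2-fold apart, against 0.652% of those genes, and 2 were at least 1.5-fold higher, Tuba1b and Tuba4a, against 3.44%.

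**Figure D1:**
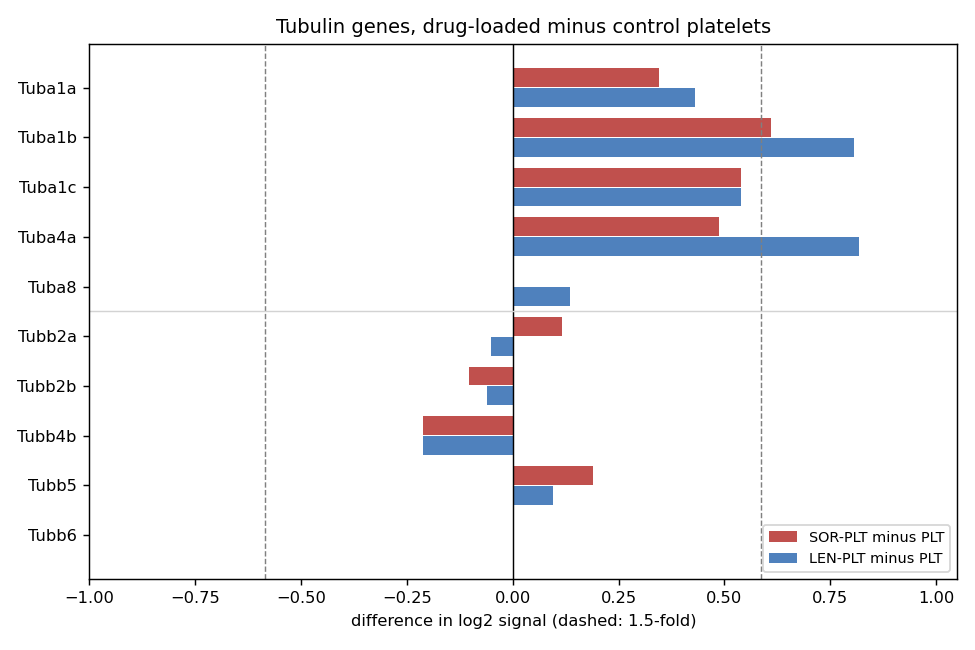
Differences in log2 signal of the 10 tubulin genes, SOR-PLT minus PLT and LEN-PLT minus PLT, 1 bar for each difference between single arrays. Tuba1b passed the 1.5-fold line in both differences and Tuba4a with lenvatinib, while all beta-tubulin genes lay between -0.21 and 0.19.

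Tuba1b, a broadly expressed alpha chain (feature TC0700003867.rn.2), read 15.16 in SOR-PLT, 15.36 in LEN-PLT and 14.55 in PLT. It was 1.53-fold higher with sorafenib and 1.75-fold higher with lenvatinib. Among the 713 genes with a mean of 12 or more, 2 had a sorafenib difference at least as high as that of Tuba1b, itself included. At least 1.5-fold higher with sorafenib were 0.281% of the 713, against 2.71% of the genes at or above the filter. With lenvatinib 11 of the 713 were at or above the difference of Tuba1b. There 2.95% were at least 1.5-fold higher, against 3.44%, so large differences were rarer at such signals mainly with sorafenib.

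Tuba4a, an alpha chain whose gene does not encode the C-terminal tyrosine of other alpha chains and whose mutation in the mouse disturbs platelet formation (feature TC0900002265.rn.2), read 16.27 in SOR-PLT, 16.60 in LEN-PLT and 15.78 in PLT. Its differences from control were 0.49 with sorafenib and 0.82 with lenvatinib. The lenvatinib array was the highest of the 3 and the control array the lowest. Of the 713 genes of high signal, 8 had a sorafenib difference and 10 a lenvatinib difference as high as that of Tuba4a or higher.

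Tuba1a, the alpha chain best known from developing neurons (feature TC0700003868.rn.2), read 16.37 in SOR-PLT, 16.45 in LEN-PLT and 16.02 in PLT, with differences from control of 0.34 and 0.43. In the ranking of the 713 genes of high signal, 35 were at or above it with sorafenib and 40 with lenvatinib. Tuba1a and Tuba1b are neighbours on rat chromosome 7, with 0 starts of protein-coding genes between them. Tuba1c lies on the same chromosome. By the windows printed above, Tuba1a lies between the starts of Tuba1b and Tuba1c. The annotated span of Tuba1c begins further upstream than its window, so genes between it and Tuba1b were not counted. Tuba1c, another broadly expressed alpha chain, is measured by a feature that the array places on no chromosome (TSUnmapped00000098.rn.2). It read 9.59 in SOR-PLT, 9.59 in LEN-PLT and 9.05 in PLT, tied between the drugs and 0.54 above control in each. Tuba8, an alpha chain with a divergent sequence, read 7.63 in SOR-PLT, 7.76 in LEN-PLT and 7.63 in PLT, close to background and tied between sorafenib and control. The alpha genes are close relatives, and the sources used here do not say whether a feature also captures transcripts of its relatives, so the share of each isotype in these values is uncertain.

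**Figure D2:**
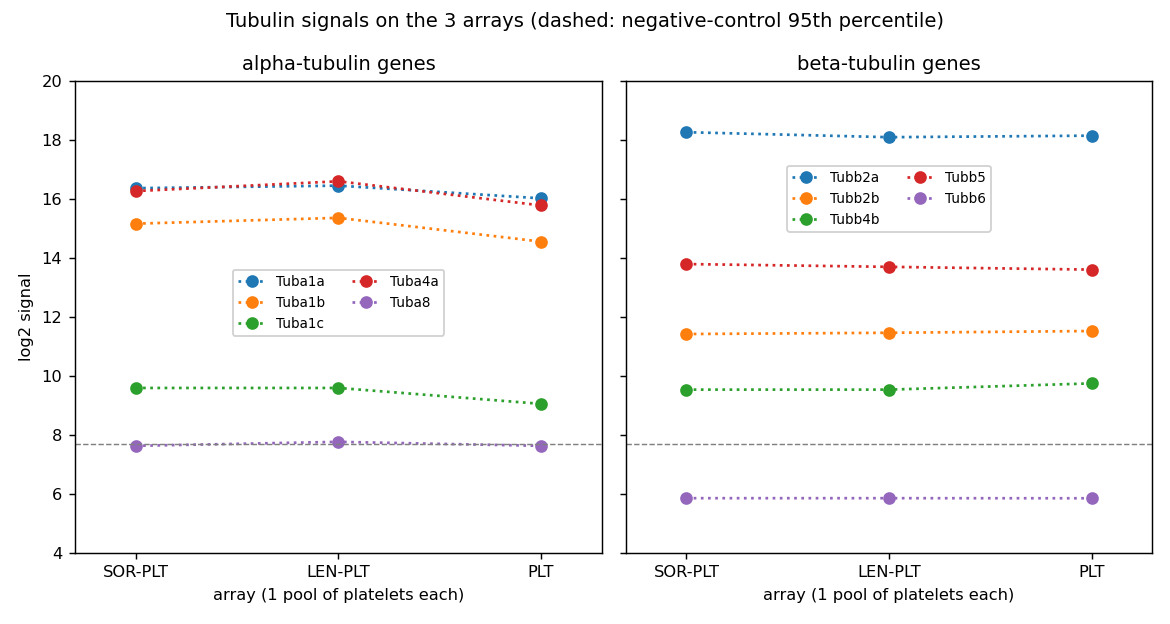
Log2 signal of each tubulin gene on the SOR-PLT, LEN-PLT and PLT arrays, alpha genes on the left and beta genes on the right, 1 point for each array. Tuba1a, Tuba1b, Tuba1c and Tuba4a were lowest in PLT, Tubb4b was highest in PLT, and Tuba8 and Tubb6 had means below the dashed background level of 7.69; heights of different genes are not comparable.

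Beta-tubulin genes stayed closer to control, and none was 1.5-fold apart in any comparison. Tubb2a, a beta chain known from neurons (feature TC1700000493.rn.2), read 18.26 in SOR-PLT, 18.10 in LEN-PLT and 18.15 in PLT. It was thus higher by 0.12 with sorafenib and at -0.05 with lenvatinib. Tubb5, a beta chain of most dividing cells (feature TC2000000108.rn.2), read 13.79 in SOR-PLT, 13.70 in LEN-PLT and 13.60 in PLT. Its differences from control were 0.19 and 0.09, the highest of the beta genes in each drug array. Tubb2b, a beta chain of developing neurons that lies beside Tubb2a on chromosome 17 with 1 protein-coding gene, Tubb2al1, between them, read 11.42 in SOR-PLT, 11.46 in LEN-PLT and 11.52 in PLT. Tubb4b, a broadly expressed beta chain that is also found in cilia (feature TC0300002661.rn.2), read 9.53 in SOR-PLT, 9.53 in LEN-PLT and 9.75 in PLT. It was the beta gene furthest below control, at -0.21 with each drug. Tubb6, another beta chain, read 5.85 on all 3 arrays, below background, so nothing can be read from it about its transcript.

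**Figure D3:**
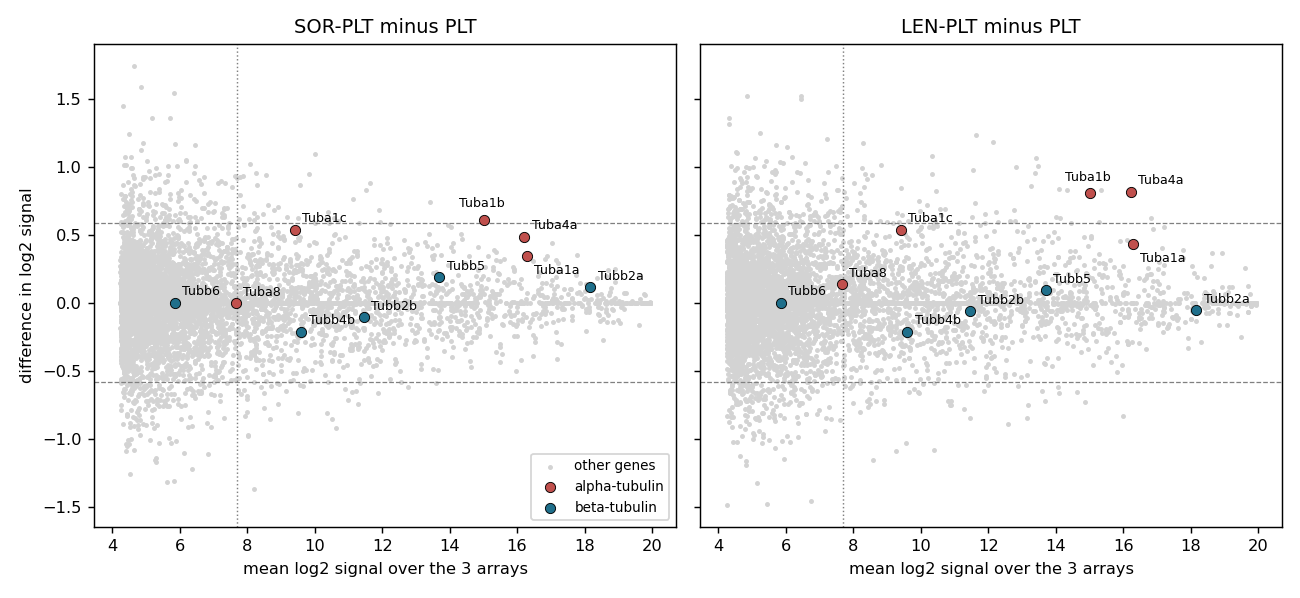
Difference in log2 signal from PLT against mean log2 signal for genes at or above the low-signal filter (grey) and the tubulin genes (coloured), for SOR-PLT on the left and LEN-PLT on the right; dashed lines mark 1.5-fold and the dotted line the background level of 7.69. Tuba1b, at a mean of 15.03, and Tuba4a, at 16.22, lay above most genes of their signal in both panels, with 0.61 and 0.49 for sorafenib and 0.81 and 0.82 for lenvatinib.

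Sorafenib was set against lenvatinib as well; mass of drug and time of loading were equal. With sorafenib 3 of the 4 alpha-tubulin genes above background were lower than with lenvatinib and 1, Tuba1c, was tied, with a median difference of -0.14. Tuba4a was the gene furthest apart, at -0.33, followed by Tuba1b at -0.20 and Tuba1a at -0.09, and Tuba8 was at -0.14 below background. Of the beta-tubulin genes above background 2 were higher with sorafenib, 1 was lower and 1 tied. Tubb2a had the largest of these differences, 0.17. Over all 1961 genes above background, 675 were higher with sorafenib, 839 lower and 447 tied. None of the 10 genes was 1.5-fold apart between the drugs, as were 4.6% of the genes at or above the filter, or 2-fold apart, as were 0.386%. The median over the 10 genes was -0.02.

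The remaining tubulins were mostly below background. Of 7 measured, Tubb4a, a beta chain of neurons and glia, was above it, at 9.41 in SOR-PLT, 9.55 in LEN-PLT and 9.36 in PLT. Tubg1, the gamma-tubulin from which microtubules are nucleated, read 5.22 in SOR-PLT, 5.39 in LEN-PLT and 4.76 in PLT, below background. Tuba3a was tied at 4.52 on all 3 arrays, and Tuba3b read 4.03 in SOR-PLT, 4.26 in LEN-PLT and 4.01 in PLT. The low values give no order among the arrays. Tubb3, the neuronal beta chain, read 4.27, 4.24 and 4.27 in SOR-PLT, LEN-PLT and PLT. Tubd1, delta-tubulin of centrioles, read 3.12 in SOR-PLT, 2.88 in LEN-PLT and 3.19 in PLT, and Tubal3 read 3.69 in SOR-PLT, 3.03 in LEN-PLT and 3.25 in PLT.

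Folding of tubulin needs the chaperonin CCT, prefoldin and the tubulin cofactors. Of 21 such genes measured, 5 were higher, 9 lower and 7 tied with sorafenib, and 4, 7 and 10 with lenvatinib, with a median of 0 in both. Counts of this and the later lists stand beside those of the 7519 genes at or above the filter. There 2740 were higher, 2664 lower and 2115 tied with sorafenib, and 2840, 2691 and 1988 with lenvatinib. Of the 21 folding genes 4 were above background. Among them Tbcb, a cofactor that binds alpha-tubulin, read 8.40 in SOR-PLT, 8.79 in LEN-PLT and 8.49 in PLT. The chaperonin subunit Cct5 read 7.86 in SOR-PLT, 7.71 in LEN-PLT and 7.86 in PLT, and Cct8 read 7.91 in SOR-PLT, 7.90 in LEN-PLT and 7.90 in PLT. The member of this list furthest above control, Cct4, was below background, at 5.97 in SOR-PLT, 5.97 in LEN-PLT and 5.21 in PLT, and was named after its values were seen.

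Of 8 genes of microtubule nucleation 0 were above background, with 3 higher and 3 lower in each drug array against control. Cdk5rap2, a centrosomal protein that anchors nucleating complexes, was the member furthest from control, at 4.56 in SOR-PLT, 4.36 in LEN-PLT and 5.53 in PLT, a choice made after its values were seen. Enzymes that modify tubulin had 1 higher and 5 lower of 10 with sorafenib, and 2 and 4 with lenvatinib. The 1 above background, Agtpbp1, which removes glutamates from tubulin tails, read 7.94 in SOR-PLT, 8.10 in LEN-PLT and 7.94 in PLT. Neither list held a gene above background that was 1.5-fold apart.

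Proteins that bind microtubules or set their dynamics had 6 higher and 10 lower of 20 with sorafenib, and 5 and 9 with lenvatinib. Above background were 4. Kif2a, a kinesin that takes microtubules apart at their ends, read 18.75 in SOR-PLT, 18.89 in LEN-PLT and 18.89 in PLT. Spast, the severing enzyme spastin, read 9.88 in SOR-PLT, 9.92 in LEN-PLT and 10.02 in PLT. Mid1ip1, a partner of the microtubule protein Mid1, read 8.82 in SOR-PLT, 8.52 in LEN-PLT and 8.71 in PLT. Differences from control of the 4 genes above background thus stayed within 0.19, smaller than those of Tuba1a, Tuba1b, Tuba1c and Tuba4a. Mapre1, of the same list but below background, read 7.20 in SOR-PLT, 7.20 in LEN-PLT and 7.79 in PLT. It was more than 1.5-fold lower in both drug arrays, and was named after its values were seen. Of 20 dynein and dynactin genes, 3 were higher, 9 lower and 8 tied with sorafenib, and 6, 7 and 7 with lenvatinib, and 12 were above background. Of 13 kinesins, 2 were higher, 8 lower and 3 tied with sorafenib, and 2, 6 and 5 with lenvatinib. Their medians were 0 in both drug arrays for dynein and dynactin, and -0.09 with sorafenib and 0 with lenvatinib for kinesins, where many tied values enter. Actr1a, the actin-related filament of dynactin, was the 1 motor gene past 1.5-fold, at 7.69 in SOR-PLT, 7.70 in LEN-PLT and 8.33 in PLT. Dctn5, of the pointed end of dynactin, read 8.24 in SOR-PLT, 8.24 in LEN-PLT and 7.84 in PLT. Dynlrb1, a dynein light chain, read 15.91 in SOR-PLT, 15.54 in LEN-PLT and 15.94 in PLT. Kif5b, the heavy chain of conventional kinesin, read 13.08 in SOR-PLT, 13.42 in LEN-PLT and 13.48 in PLT, and was the 1 kinesin of its list above background.

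**Figure D4:**
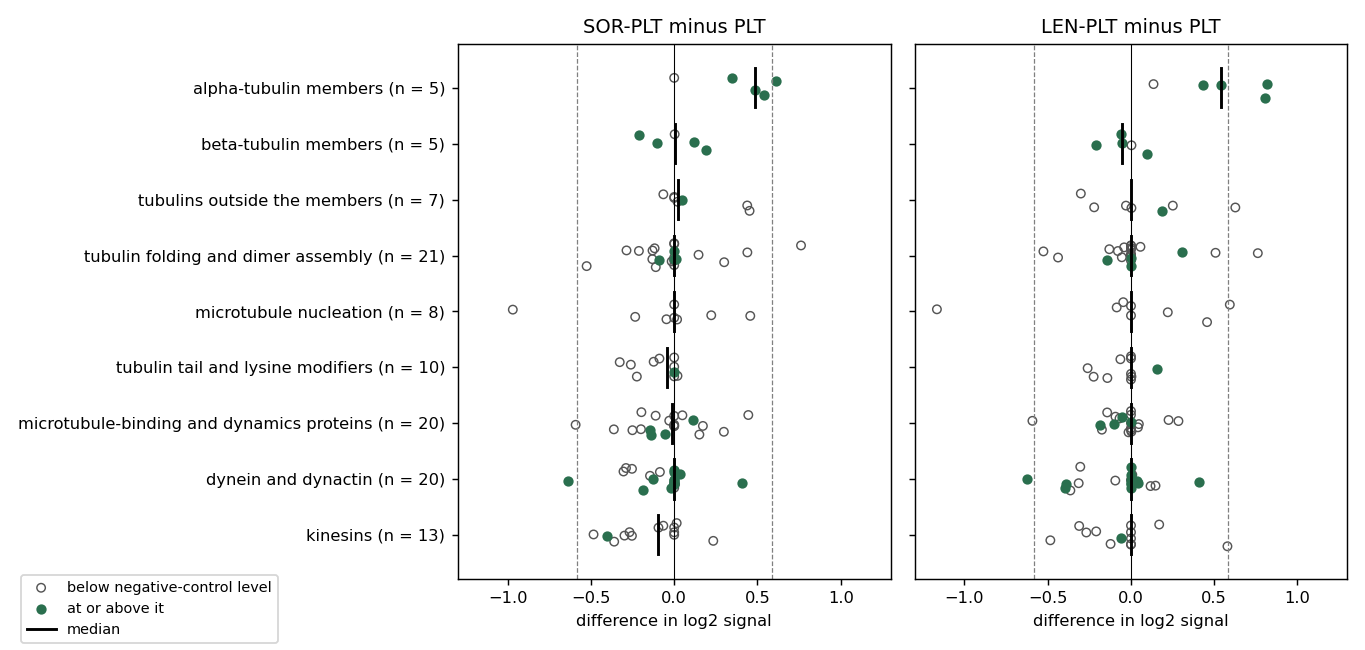
Differences in log2 signal from PLT for the alpha and beta tubulin genes and 7 lists of microtubule genes, SOR-PLT on the left and LEN-PLT on the right; filled points are genes with a mean at or above the background level of 7.69, open points genes below it, and black bars the medians. The alpha-tubulin medians were 0.49 and 0.54, and every other median lay between -0.09 and 0.02.

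Genes whose differences were most like those of the leading alpha-tubulins were sought among 1950 named genes above background, by Euclidean distance between pairs of differences, SOR-PLT minus PLT and LEN-PLT minus PLT, over 3 arrays. Nearest to Tuba4a were Acer2, an alkaline ceramidase, at a distance of 0.02, Rasl10a, a small GTPase, at 0.06 and Chst12, a sulfotransferase of chondroitin, at 0.10. Acer2 read 14.39 in SOR-PLT, 14.71 in LEN-PLT and 13.88 in PLT. Nearest to Tuba1b were Nfatc3, a transcription factor under calcineurin, at 0.01, Acer2 at 0.11 and Eloc, elongin C, at 0.11. With 3 arrays such likeness rests on a pair of differences that share the control array.

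Markers of other blood cells were read beside these results. Of 6 measured red-cell genes, 3 were higher and 2 lower with sorafenib, and 5 higher and 0 lower with lenvatinib, with medians of 0.06 and 0.50. Over the 4 above background, 1 was higher and 2 lower with sorafenib, and 3 higher and 0 lower with lenvatinib. Their medians were -0.003 and 0.10. Alas2, of heme synthesis, differed by -0.006 with sorafenib and 0.16 with lenvatinib, and Hbb by -0.07 and 0.05. Over all 6 red-cell genes the log2 of the summed signal was 20.41 in SOR-PLT, 20.44 in LEN-PLT and 20.43 in PLT. This sum was set largely by Hba-a1, which was at the top of the scale on all 3 arrays. Without the globins Hba-a1 and Hbb, over the other 4, it was 12.20 in SOR-PLT, 12.40 in LEN-PLT and 12.18 in PLT. Slc4a1, the anion exchanger of red cells, was at 0.30 above control with sorafenib and 0.85 with lenvatinib, where it was past the difference of Tuba4a. Epb42, of the red-cell membrane skeleton, and Ahsp, a chaperone of alpha globin, were below background. They were at 0.12 and 0.27 above control with sorafenib, and at 1.11 and 0.93 with lenvatinib. Of 10 leukocyte genes 2 were above background: Lyz2, lysozyme, read 15.37 in SOR-PLT, 15.34 in LEN-PLT and 15.13 in PLT, and S100a9 read 7.97 in SOR-PLT, 7.88 in LEN-PLT and 8.37 in PLT. Leukocyte genes had 3 higher and 5 lower with sorafenib and 3 higher and 6 lower with lenvatinib. The log2 of their summed signal was 15.39 in SOR-PLT, 15.36 in LEN-PLT and 15.16 in PLT, a sum set largely by Lyz2. The lineage markers Ptprc, Cd3e, Cd3g, Cd79b and Cd14 were below background. Among 4 endothelial genes Kdr alone was above background, at 8.98 on all 3 arrays. All 4 were lower than control with each drug, Kdr by 0.003. At least 1.5-fold lower was 1 of the 4 with sorafenib, against 193 of the 7519 genes at or above the filter. With lenvatinib 3 were, against 214. None of 5 neuronal genes was above background. The part of red cells and leukocytes in the alpha-tubulin differences was not tested. Of the 8 platelet markers above background, 3 were higher, 1 lower and 4 tied with sorafenib, and 2, 3 and 3 with lenvatinib, where Pf4 and Clec1b are tied at the top of the scale. Ppbp, a platelet chemokine, read 18.89 in SOR-PLT, 18.71 in LEN-PLT and 18.78 in PLT.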

How the data were processed

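Platelet RNA of 3 pools was labelled with biotin, then phycoerythrin, per the labels, and measured on 3 arrays. The authors deposited log2 signals for 23188 features; background correction, summary and normalization are not given in the sources used here, nor is a genome build. A second deposited table of log2 signals, which adds control features, equals the first within 5e-05. Platform annotation gave 1 symbol for 15049 features and the feature with the highest mean was kept for each gene. All 10 tubulin genes matched a RefSeq gene table (GRCr8) by gene ID; it was used for names and neighbours. Genes at or above the median mean signal, 4.25, formed the background of 7519 genes. Differences and counts were computed with Python 3.11.15, pandas 2.3.3 and numpy 2.4.6, alternative normalizations with limma 3.58.1, and figures with matplotlib 3.10.9. The counting of genes past 2-fold was tested on simulated data with planted shifts larger than that threshold. Other steps were not tested in this way. With 1 array in each group, no test was run.

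All members were named. From each of 7 gene lists and the cell markers, up to 3 genes above background with the largest difference from control were open to naming, as were all other tubulins and, for each of the 2 members furthest from control, the 3 genes nearest by Euclidean distance; marker genes beyond these were named after their values were seen. The members and lists were chosen with earlier results of these data known. Alternatives were median centring, quantile and cyclic loess normalization, the mean of a gene's features, the second table, thresholds of 1.5-fold and 3-fold, other filters, means for medians, and members without ceiling values or ties. Alpha and beta medians over members above background, and the background shares over genes above the negative controls and over genes with a mean of 12 or more were added after seeing the data.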

Additional observations from a re-analysis of the deposited data

How the results depend on the processing

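No paired analysis was possible because each group has 1 array and no test was run. Over median centring, quantile normalization, cyclic loess, the mean of a gene's features and the second table, all 150 recomputed differences of single tubulin genes stayed within 0.1 of the values given, the largest shift being 0.08. Among differences other than 0, only those of Tubb6 changed sign, against 0.0028 in each drug array. With sorafenib it went to -0.0018 under median centring. With lenvatinib it went to -0.0035 under median centring and -0.0064 under cyclic loess. Tied genes took small differences of either sign under other normalizations. Tuba8 with sorafenib, for example, was at -0.0047 under median centring and 0.0234 under quantile normalization. The counts of genes 1.5-fold apart, 1 with sorafenib, 2 with lenvatinib and 0 between the drugs, were the same under these 5 settings. At 1.5-fold in place of 2-fold the counts of tubulin genes apart from control were thus 1 and 2 in place of 0 and 0. Over the 8 members above background the median difference was 0.27 with sorafenib and 0.26 with lenvatinib, against 0.15 and 0.11, because Tuba8 and Tubb6 were left out. The mean with lenvatinib was 0.25. Among all genes, the share at least 2-fold apart with sorafenib was 0.153% above the negative controls and 0% at means of 12 or more, against 0.585% above the filter; between the drugs it was 0.204% and 0%, against 0.386%. At 1.5-fold the share at means of 12 or more was 0.561% with sorafenib, against 5.28%, and 1.54% between the drugs, against 4.6%. With lenvatinib the shares moved less. At means of 12 or more 0.561% were at least 2-fold apart, against 0.652%, and 4.49% at least 1.5-fold, against 6.29%.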
